A study of Mus musculus with 4 samples.

Results

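The genes described here are the protein-coding cytochrome P450 genes of families 1, 2 and 3, the families that oxidize most drugs and many steroids, fatty acids and bile acids in the liver. They were taken by symbol, as family number, subfamily letter and gene number, from a gene table of 22079 identifiers. The pattern found 60 genes in 16 subfamilies, and all 60 protein-coding genes of these families with such a symbol in the annotation were present in the table. RNA came from mouse primary hepatocytes, the main cells of the liver, in 4 libraries, with 2 biological replicates from wild-type mice (WT) and 2 from mice of genotype Prom1-/- (KO). All mice were male, of strain C57BL/6 and 8 weeks old. Cells of both genotypes attached for 4 hours in 199 medium that held 10% FBS, 10 nM dexamethasone (a glucocorticoid) and HEPES at 23 mM, and were then held overnight without serum. The labels do not describe the Prom1 allele or say whether animals were pooled, and the p-values measure only the spread between these libraries.

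A P450 enzyme holds a haem group in the membrane of the endoplasmic reticulum and takes electrons from the reductase encoded by Por. Transcription of these genes in hepatocytes is driven by ligand-sensing receptors, with AhR (Ahr) acting mainly on family 1, CAR (Nr1i3) on the Cyp2b and Cyp2c genes and PXR (Nr1i2) on the Cyp3a genes. The liver factor HNF4A supports many members in the absence of an inducer. Several mouse members also differ in level between the sexes under the control of growth hormone, and cultured hepatocytes are known to lose P450 RNA over time.

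Prom1, the deleted gene, had levels of 0.571 (WT 1), 1.22 (WT 2) and 0.0458 FPKM (KO 2) and was listed at 0 in KO 1. FPKM is fragments per kilobase of transcript, scaled to library depth, so that levels can be compared between genes. Y-linked transcripts of 4 genes were between 6.89 and 23.9 FPKM in all libraries. Albumin (Alb), the leading hepatocyte marker, was at 25551 to 32670 FPKM in 3 libraries and listed at 0 in WT 2, where the remaining hepatocyte markers were high, so a 0 in this table can be a failed estimate. No tested member was listed at 0 in any library. The summed level of 12 sinusoidal endothelial markers was 65.7, 61.9, 90.4 and 48.0 FPKM in WT 1, WT 2, KO 1 and KO 2, and that of 12 stellate cell markers was 31.8, 32.6, 53.4 and 22.3 FPKM. The 12 macrophage markers summed to 384, 380.3, 436 and 504 FPKM, of which Cd68 alone made up 357, 351, 393 and 465 FPKM. Of the 10 tested, 7 were higher in KO and 3 lower. An unadjusted p under 0.05 was found for 3, all higher, where 3.1% of all genes tested were higher at such a p. The 10 cholangiocyte markers summed to 67.3 to 85.6 FPKM. KO 1 was thus the library highest in endothelial and stellate markers and KO 2 the lowest. In bulk RNA, fewer cells of a type and less RNA per cell cannot be told apart.

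Of the 60 members, 31 had a mean of at least 1 FPKM and were tested, 16 lay below that mean with a value above 0 in some library, and 13 were listed at 0 in all 4 libraries. The 13 included Cyp2b9, Cyp2b13, Cyp3a16, Cyp3a41a and Cyp3a41b, genes known for expression in female or fetal mouse liver, together with 4 Cyp2j genes, Cyp2b19, Cyp2c66, Cyp2t4 and Cyp2w1. Of the 50-base windows of the Cyp3a41a and Cyp3a41b transcripts, 98.6% and 93.5% were found in another gene. The values of those 2 genes thus depend on how fragments were shared. The 10 members with a mean of at least 100 FPKM held 83.8% of the summed member FPKM. Added together, the members made up 0.759% (WT 1), 0.860% (WT 2), 0.612% (KO 1) and 0.786% (KO 2) of all FPKM. Their summed level was 4216 ± 370 FPKM for WT against 3675 ± 885 FPKM for KO (SD, n = 2), a difference within the spread of the KO libraries, which stood at 3049 and 4301 FPKM.

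**Figure D1:**
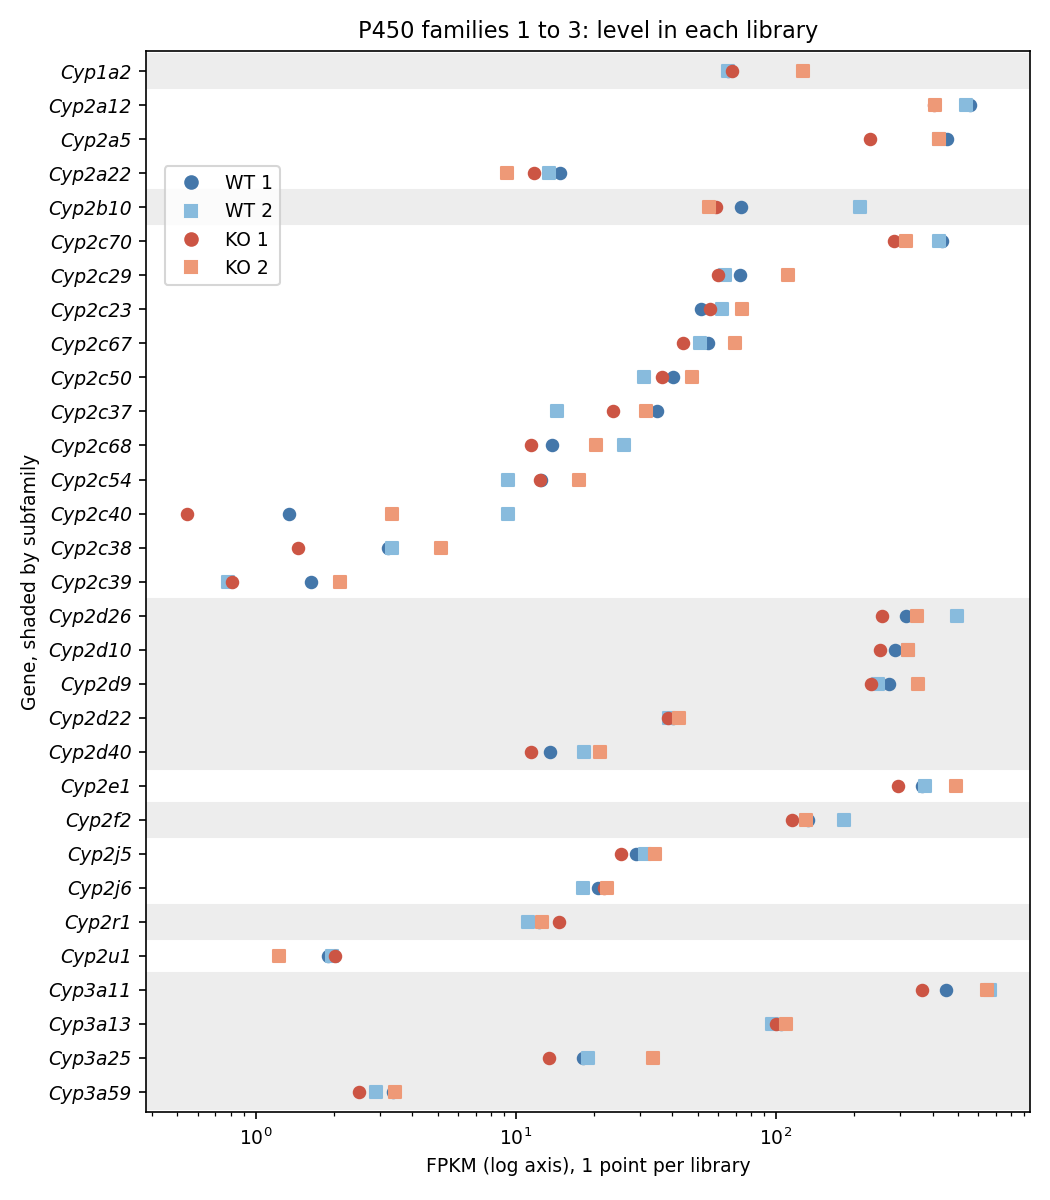
Level of each of the 31 tested members in each of the 4 libraries, in FPKM on a log axis, ordered by subfamily; blue shades are WT libraries and red shades are KO libraries. For Cyp2a12 and Cyp2c70 both KO points lie to the left of both WT points, while for most Cyp2c, Cyp2d and Cyp3a genes the points of the genotypes mix.

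No member was called. By limma on log2(FPKM + 1) with Benjamini-Hochberg adjustment, 0 of 31 tested members had an adjusted p under 0.05, against 0 of 10407 genes tested (0%), and the lowest adjusted p of a member was 0.519. At an unadjusted limma p under 0.05, 4 members were lower in KO (Cyp2c70, Cyp2a12, Cyp2a22 and Cyp2b10) and 0 were higher. Over all genes tested 7.29% had such a p, 4.19% lower and 3.1% higher. Both KO libraries lay outside the range of both WT libraries for 9 of 31 members, 6 lower and 3 higher, where 38.1% of all genes tested did so, 19.8% lower and 18.3% higher. As shares of the members these were 12.9% at an unadjusted p under 0.05, all lower, and 29% apart, 19.4% lower and 9.68% higher. The sign of the difference was negative for 16 of 31 members (50.3% of all genes), and the median difference was -0.019 on the log2 scale, beside -0.0011 over all genes. With 2 libraries on each side, the smallest two-sided p that exact permutation allows is 0.333. The counts, of members and of all genes, moved with the library left out, in fits that keep 1 library in a genotype. The median log2 difference of the members was 0.18 without KO 1 and -0.25 without KO 2, beside 0.0048 and -0.013 over all genes. Without WT 1 and without WT 2 it was 0.015 and 0.0053, beside -0.0020 and -0.0034 over all genes.

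**Figure D2:**
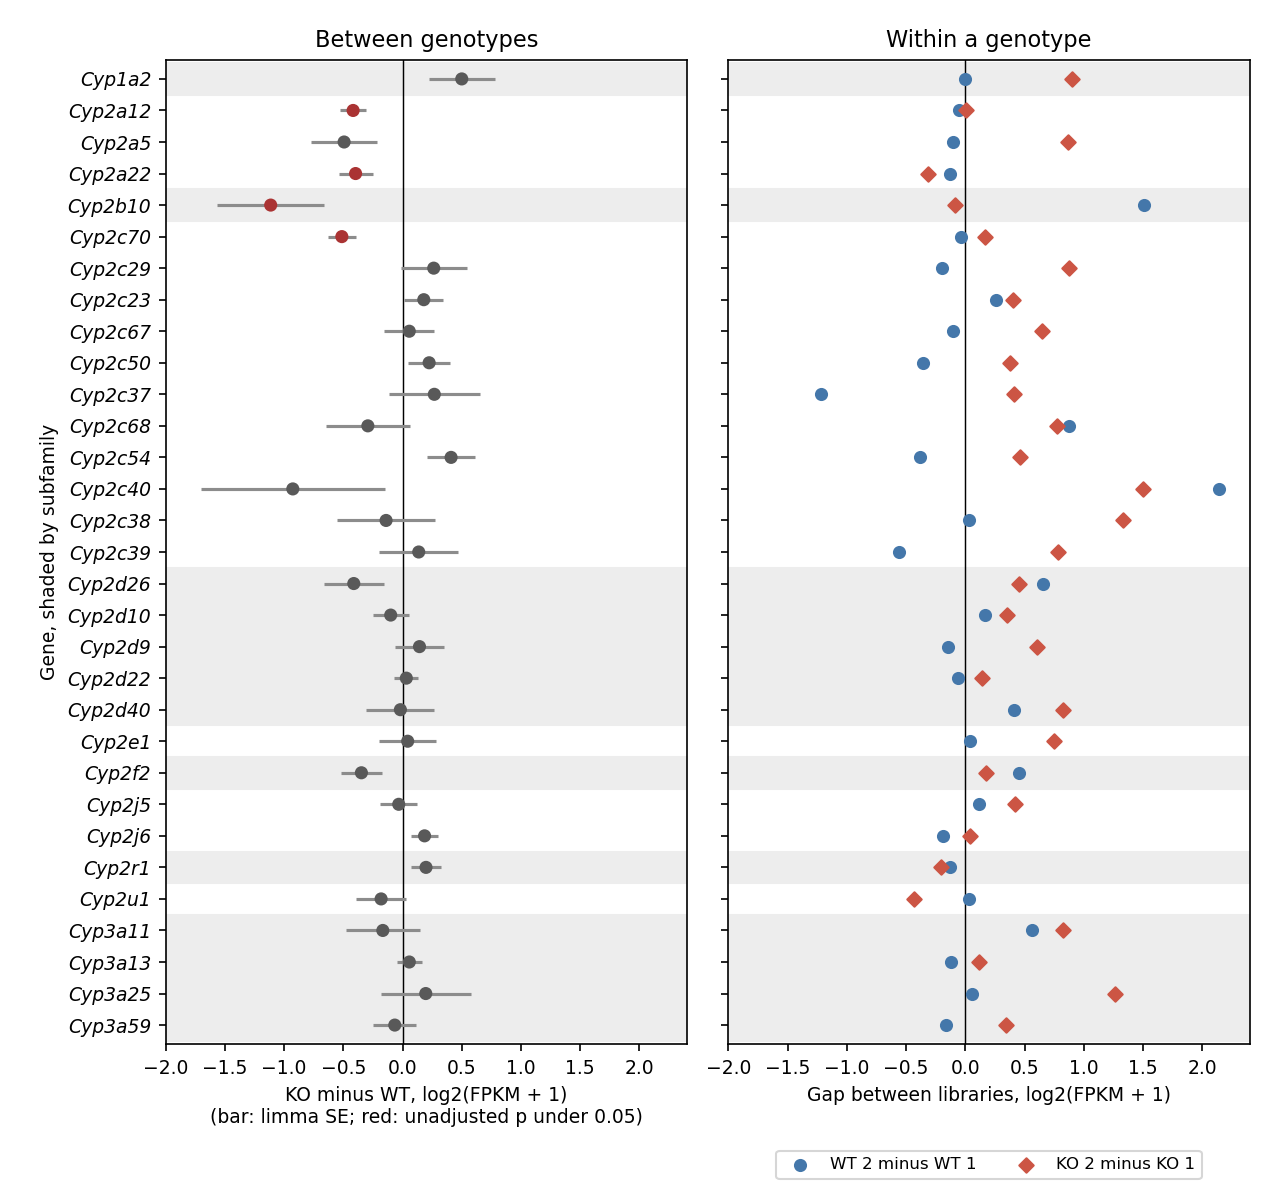
Left, KO minus WT difference of each tested member in log2(FPKM + 1) with its limma standard error; red points have an unadjusted p under 0.05. Right, gap between the 2 libraries of a genotype on the same scale, with WT in blue and KO as red diamonds; 27 of 31 diamonds lie to the right of 0, and the largest blue gaps belong to Cyp2c40 and Cyp2b10.

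Cyp2c70, which converts chenodeoxycholic acid to muricholic acids and so sets the rodent bile acid pool, had the lowest p of the members. The gene occupies chr19:40153353-40187333 (mm10), minus strand. It stood at 434 and 423 FPKM in WT 1 and WT 2 and at 283 and 318 FPKM in KO 1 and KO 2. The WT libraries lay close together and the groups did not overlap. The log2 difference was -0.51 (SE 0.12, limma adjusted p = 0.519). Its unadjusted p was under 0.05 with all libraries, in the 9 alternative settings and with each library left out, and no window of 50 bases of its transcript occurred in the transcripts of another gene.

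The other 10 tested Cyp2c genes, which include epoxygenases of arachidonic acid and targets of CAR, did not share that pattern. All 10 overlapped between genotypes, and 0 of the 10 had an unadjusted p under 0.05. Cyp2c29, the next most abundant, stood at 73.0 and 63.5 FPKM in WT and at 60.1 and 111 FPKM in KO (log2 difference 0.26). Cyp2c23, Cyp2c67, Cyp2c50 and Cyp2c37 had means between 26.2 and 60.9 FPKM and log2 differences of 0.06 to 0.27. Cyp2c54 was lower in level and had a larger log2 difference of 0.41. It stood at 12.5 and 9.36 FPKM in WT and at 12.4 and 17.5 FPKM in KO. KO 2 was the highest library at 7 of the 11 tested Cyp2c genes. Without Cyp2c70 the subfamily summed to 281 ± 9.95 FPKM for WT against 315 ± 96.7 FPKM for KO (SD, n = 2), while with it the sums were 709 ± 18.1 and 616 ± 121 FPKM. Cyp2c38 (means 3.29 FPKM in WT and 3.31 FPKM in KO) and Cyp2c39 (1.20 and 1.46 FPKM) were low in both genotypes.

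Cyp2c40 and Cyp2c68, neighbours in the cluster on chromosome 19, were highest in WT 2. Cyp2c40, a gene of female-predominant expression, had levels of 1.35 (WT 1), 9.34 (WT 2), 0.542 (KO 1) and 3.35 FPKM (KO 2). The WT libraries thus differed 6.93-fold, more than the genotypes did. Cyp2c68 stood at 13.7, 26.0, 11.4 and 20.3 FPKM in the same order, and Cyp2c69, which was too low to be tested, at 0.0888, 1.89, 0.125 and 0.561 FPKM. These genes are close copies: 72.1% of the 50-base windows of the Cyp2c40 transcript were found in another gene, most often Cyp2c69 (42.1%), so their separate values depend on how fragments were shared.

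The sequence next to the transcription start was examined because Hnf4a, which encodes a factor acting on many P450 promoters, was lower in both KO libraries than in both WT libraries. RefSeq promoter windows (build GRCm38.p6) were found for 52 members, 27 of them tested, and the 250 bases before the start were searched on both strands. CAAAGTCCA, a form of the site bound by HNF4A, occurred in 10 of 52 member promoters and in 5 of 27 tested ones, beside 0.381% of 27025 promoters. The 5 were those of Cyp3a11, Cyp2c70, Cyp2c67, Cyp2c68 and Cyp2c40. Only Cyp2c70 among them had KO libraries apart from the WT libraries, and members with close copies have related promoters. AGGTCA, a half-site of nuclear receptors, occurred in 8 of 27 (13.8% of all promoters), GCGTG, the core of the AhR element, in 2 of 27 (28.2%), and TATAAA in 15 of 27 (13%). No 2 of these motifs overlapped in a member promoter. A match names letters in a window and no binding was measured. The 120 bases before the RefSeq start are shown for 4 promoters that hold the HNF4A form, 5′ to 3′ on the gene's strand. Matches to any of the 4 motifs are in capitals. In the gene annotation, the 5′ ends of Cyp3a11 (145879964), Cyp2c70 (40187333) and Cyp2c69 (39886799) fall inside the windows shown. Part of each of those windows thus lies within the annotated gene. That part holds the HNF4A form of Cyp3a11 and the TATAAA match of Cyp2c70.
Cyp2c70, chr19:40187287-40187406, minus strand: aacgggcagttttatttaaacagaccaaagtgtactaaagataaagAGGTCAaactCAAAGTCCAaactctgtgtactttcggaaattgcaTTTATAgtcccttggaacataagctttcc
Cyp3a11, chr5:145879855-145879974, minus strand: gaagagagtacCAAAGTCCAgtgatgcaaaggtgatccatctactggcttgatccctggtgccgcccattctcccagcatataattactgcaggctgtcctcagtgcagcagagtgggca
Cyp2c40, chr19:39812815-39812934, minus strand: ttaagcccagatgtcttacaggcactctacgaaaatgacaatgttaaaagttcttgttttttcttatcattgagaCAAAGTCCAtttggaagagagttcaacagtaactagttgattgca
Cyp2c69, chr19:39886770-39886889, minus strand: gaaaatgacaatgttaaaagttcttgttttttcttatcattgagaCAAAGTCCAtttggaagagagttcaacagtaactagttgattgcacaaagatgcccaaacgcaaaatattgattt

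All 3 tested Cyp2a genes were lower in both KO libraries than in both WT libraries, as were 19.8% of all genes tested. The 4 Cyp2a genes summed to 1000.04 ± 34.9 FPKM for WT against 745 ± 136 FPKM for KO (SD, n = 2). The sums were 1025 and 975 FPKM in the WT libraries and 649 and 841 FPKM in the KO libraries. The KO sum was 0.745 times that of WT. Cyp2a12, which hydroxylates testosterone and secondary bile acids, stood at 555 and 536 FPKM in WT and at 407 and 409 FPKM in KO. Its libraries agreed closely within each genotype (log2 difference -0.42, SE 0.11, limma adjusted p = 0.562). Its unadjusted p was under 0.05 in 12 of 14 settings and was not without WT 1 or without WT 2. Cyp2a22 stood at 14.7 and 13.4 FPKM in WT and at 11.8 and 9.25 FPKM in KO (log2 difference -0.40, SE 0.14, limma adjusted p = 0.651). Its unadjusted p was under 0.05 in 9 of 14 settings, and its difference was -0.24 without KO 2. Cyp2a12 shared 27.5% of its 50-base windows with Cyp2a22, so these values are partly tied.

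Cyp2a5, the coumarin hydroxylase of mouse liver, stood at 455, 424, 230.1 and 422 FPKM in WT 1, WT 2, KO 1 and KO 2. KO 2 lay just under WT 2, and the difference of -0.49 (SE 0.28, limma adjusted p = 0.741) came down to -0.06 without KO 1. Its close copy Cyp2a4, a female-predominant testosterone hydroxylase, was at 0.124, 1.51, 0.0647 and 0.406 FPKM, highest in WT 2. The promoters of Cyp2a5 and Cyp2a4 are shown because the genes differ so widely in level: over the 250 bases before the start they were identical at 245 of 249 aligned bases (98.4%). Those of Cyp2a12 and Cyp2a22 were identical at 212 of 239 (88.7%). In the 120 bases before the RefSeq start, the capitals mark TATAAA. The annotated genes Cyp2a5 (from 26835305), Cyp2a4 (from 26307169) and Cyp2a12 (from 27029081) begin inside the windows shown, so the last bases of those windows lie within the genes.
Cyp2a5, chr7:26835219-26835338, plus strand: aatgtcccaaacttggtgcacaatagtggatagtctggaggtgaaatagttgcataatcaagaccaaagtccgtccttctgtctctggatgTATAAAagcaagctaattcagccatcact
Cyp2a4, chr7:26307072-26307191, plus strand: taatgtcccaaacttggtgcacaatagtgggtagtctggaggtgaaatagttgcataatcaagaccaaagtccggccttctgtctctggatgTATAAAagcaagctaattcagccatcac
Cyp2a12, chr7:27028970-27029089, plus strand: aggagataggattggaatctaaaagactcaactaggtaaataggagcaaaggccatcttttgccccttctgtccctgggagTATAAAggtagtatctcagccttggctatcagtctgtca
Cyp2a22, chr7:26939387-26939506, minus strand: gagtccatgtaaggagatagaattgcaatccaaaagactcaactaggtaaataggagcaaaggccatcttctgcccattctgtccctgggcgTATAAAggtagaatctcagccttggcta

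Cyp2b10, the classic target of CAR and of phenobarbital, had the most negative log2 difference of the tested members, and that difference rested mostly on WT 2. Its levels were 73.2 (WT 1), 211 (WT 2), 58.7 (KO 1) and 55.2 FPKM (KO 2). WT 2 was 2.88 times WT 1, and WT 1 was also above both KO libraries, by a smaller margin. The log2 difference was -1.11 (SE 0.45, limma adjusted p = 0.682). Without WT 1 it was -1.87 with an adjusted p of 0.0170 by limma, the one call of a member in any alternative, and without WT 2 it was -0.36. Across all alternatives the adjusted p of Cyp2b10 thus depended on which WT library was kept. The other 4 Cyp2b genes were not tested: Cyp2b23 was at 0.0578 to 0.421 FPKM, and Cyp2b9, Cyp2b13 and Cyp2b19 were listed at 0.

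Cyp2g1, known from the olfactory mucosa, lies in the same cluster on chromosome 7. At 0.615 and 1.33 FPKM in WT and at 0.0592 and 0.134 FPKM in KO, it was low in all libraries and did not overlap between genotypes. In a limma fit without the level filter (15152 genes), its log2 difference was -0.82 (adjusted p = 0.755). Like Cyp2b10, Cyp2c40, Cyp2c69 and Cyp2a4, it was highest in WT 2. That library was the highest at 7 of 31 tested members and at 27.7% of all genes tested. Cyp2f2, a naphthalene-oxidizing enzyme of periportal hepatocytes, stood at 133 and 183 FPKM in WT and at 115 and 130 FPKM in KO. Its KO 2 value lay close under WT 1 (log2 difference -0.35, SE 0.17, limma adjusted p = 0.711), and the difference was -0.12 without WT 2. Periportal markers other than Cyp2f2 summed to 1214 and 1839 FPKM in WT and to 864 and 1302 FPKM in KO, with WT 2 highest as for Cyp2f2. Of the 14 tested periportal markers, Cyp2f2 included, 13 were lower in KO (median log2 difference -0.42), 5 at an unadjusted p under 0.05. Over all genes tested 50.3% were lower, 4.19% at such a p. Among 10 tested pericentral markers, Cyp1a2 and Cyp2e1 included, 4 were lower and 6 higher (median 0.06), with 2 lower and 1 higher at such a p. The part of the periportal markers in the Cyp2f2 values was not tested. Cyp2f2 shares exon sequence with an antisense gene, Gm15883, as Cyp2u1 does with 4930534D22Rik; the sources used here do not state whether counting used strand.

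The Cyp2d genes had the highest summed level over the 4 libraries, though in WT 1 the Cyp2a sum was higher (1025 against 931 FPKM), and their libraries overlapped at each of the 5 tested members. They summed to 1028 ± 137 FPKM for WT against 938 ± 210.3 FPKM for KO (SD, n = 2). Cyp2d26 led with 316, 498, 255 and 349 FPKM in WT 1, WT 2, KO 1 and KO 2 (log2 difference -0.41, SE 0.25, limma adjusted p = 0.763), and the difference was -0.085 without WT 2 and -0.19 without KO 1. Cyp2d10 stood at 288, 323, 252 and 321 FPKM, and the male-predominant testosterone hydroxylase gene Cyp2d9 at 273, 246, 232 and 353 FPKM. KO 1 was the lowest library at all 5 genes. Cyp2d22, often set beside human CYP2D6, was the steadiest of them at 38.4 to 42.6 FPKM, and Cyp2d40 ran from 11.4 to 21.05 FPKM. Cyp2d10 and Cyp2d9 share 40.5% and 29.0% of their 50-base windows with other genes.

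Cyp3a11, the main PXR target and the member with the highest mean, overlapped between genotypes. It stood at 449 and 663 FPKM in WT and at 364 and 647 FPKM in KO, so that replicates of both genotypes differed more than the genotypes (log2 difference -0.17, SE 0.31, limma adjusted p = 0.935). Cyp3a13 was even across the libraries, at 96.4 to 109 FPKM. Cyp3a25 stood at 18.1 and 18.9 FPKM in WT and at 13.4 and 33.6 FPKM in KO, on both sides of the WT values. Cyp3a59 lay between 2.498 and 3.44 FPKM. The remaining Cyp3a genes were under 0.5 FPKM in each library.

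Cyp2e1, the pericentral enzyme that oxidizes ethanol and paracetamol, stood at 364 and 375 FPKM in WT and at 294 and 494 FPKM in KO. The KO libraries fell on either side of the WT libraries (log2 difference 0.04, SE 0.24, limma adjusted p = 0.981). Cyp1a2, the pericentral enzyme of caffeine metabolism and a target of AhR, stood at 65.4 and 65.1 FPKM in WT and at 67.7 and 127 FPKM in KO. Its higher KO mean (log2 difference 0.50, SE 0.28, limma adjusted p = 0.735) came from KO 2, and the difference was 0.05 without that library. Cyp1a1, the most inducible AhR target, was at 0.627 and 0.465 FPKM in WT and at 0.926 and 0.677 FPKM in KO, without overlap and too low to be tested. Cyp1b1 did not exceed 0.0151 FPKM.

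Cyp2r1, the vitamin D hydroxylase of the liver, stood at 12.3 and 11.1 FPKM in WT and at 14.6 and 12.6 FPKM in KO. These groups did not overlap, by a small margin (log2 difference 0.20, SE 0.12, limma adjusted p = 0.771), and the difference was 0.096 without KO 1. Cyp2j5, an arachidonic acid epoxygenase, ran from 25.4 to 34.3 FPKM (log2 difference -0.03, SE 0.16, limma adjusted p = 0.981). Its neighbour Cyp2j6 was at 20.7 and 18.1 FPKM in WT and at 21.8 and 22.5 FPKM in KO. Cyp2u1, a fatty acid hydroxylase, ran from 1.23 to 2.01 FPKM (log2 difference -0.18, SE 0.21, limma adjusted p = 0.873). Cyp2s1 reached 0.0225 FPKM in WT 1 and was listed at 0 elsewhere.

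**Figure D3:**
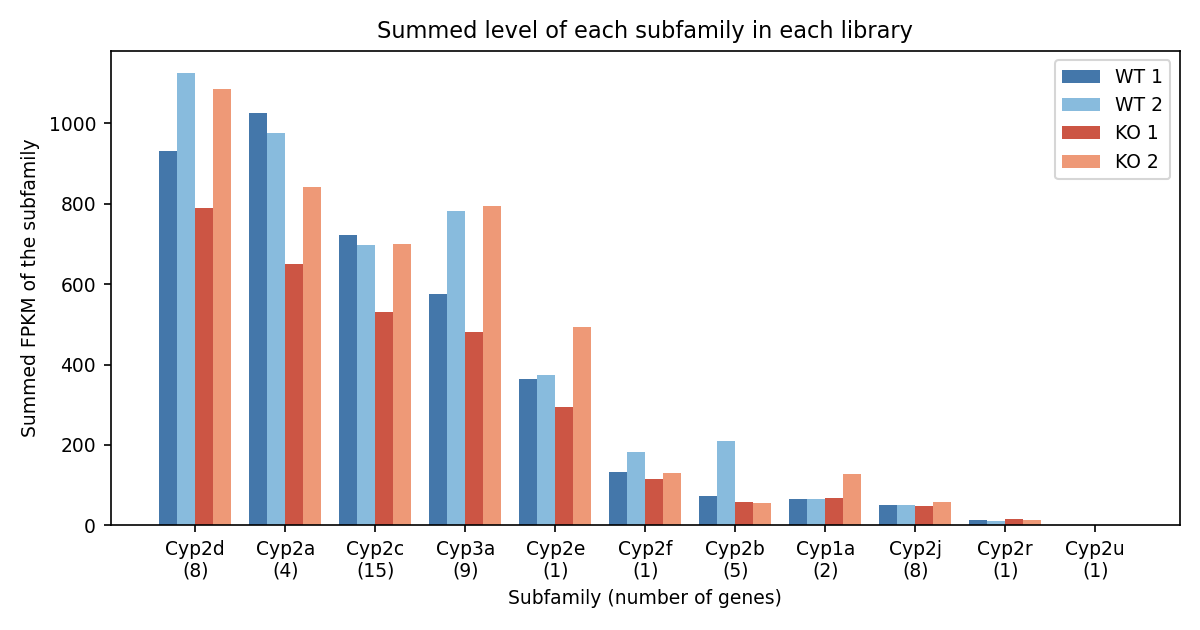
Summed FPKM of each subfamily with a tested member, 1 bar per library (blue shades WT, red shades KO), with the number of genes in brackets. The Cyp2a bars of both KO libraries are below those of both WT libraries, while in Cyp2d, Cyp3a and Cyp2e the KO 1 bar is the lowest and the KO 2 bar is near or above the highest WT bar.

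KO 2 was above KO 1 at 27 of 31 tested members, against 53.2% of all genes tested, and the median gap was 0.42 on the log2 scale against 0.02. All 11 Cyp2c, 5 Cyp2d and 4 Cyp3a genes tested took part, and the 4 that did not were Cyp2a22, Cyp2b10, Cyp2r1 and Cyp2u1. The same order was seen at 15 of 17 tested UGT genes, 16 of 20 GST genes, 13 of 21 P450 genes of families 4 and above and 12 of 14 hepatocyte markers, and at 0 of 10 endothelial and 0 of 4 stellate markers tested. KO 1 was the lowest of the 4 libraries at 19 members (30.8% of all genes) and KO 2 the highest at 17 (26.3%). Between the WT libraries, WT 2 was above WT 1 at 14 of 31 members (49.7% of all genes). Summed endothelial and stellate markers were highest in KO 1 as well, and the hepatocyte markers other than Alb summed to 18565 FPKM there, the lowest value of the 4 libraries, which reached 24048.5 FPKM in WT 2. The part of other cell types in the KO 1 values was not tested. Without KO 1 the median log2 difference of the members was 0.18, with 9 of 31 lower in KO, and without KO 2 it was -0.25, with 24 lower. Cyp2c70 and Cyp2a12 kept differences of -0.43 to -0.59 and -0.39 to -0.44 with any 1 library left out.

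Receptors that act on these genes, and genes listed as their partners, were mostly lower in KO. The list was not limited to genes that drive P450 transcription. Of 22 genes listed, 20 were tested, 16 lower and 4 higher, with a median log2 difference of -0.23 beside -0.0011 over all genes. None was called by limma after adjustment. At an unadjusted p under 0.05, 4 were lower and 0 higher (4.19% and 3.1% of all genes tested), and the genotypes did not overlap for 12 that were lower and 1 that was higher (19.8% and 18.3%). Hnf4a, the nuclear receptor that maintains hepatocyte identity, stood at 90.4 and 95.8 FPKM in WT and at 64.9 and 59.5 FPKM in KO. The genotypes were well apart, with replicates close together (log2 difference -0.58, SE 0.10, limma adjusted p = 0.470). Nr1i2, encoding PXR, stood at 13.8 and 13.5 FPKM in WT and at 7.95 and 10.9 FPKM in KO (log2 difference -0.502, SE 0.16, limma adjusted p = 0.586).

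Rxra, the partner of PXR, CAR and other receptors, stood at 32.8 and 42.1 FPKM in WT and at 25.3 and 29.8 FPKM in KO (log2 difference -0.42, limma adjusted p = 0.651). Arnt, the partner of AhR, stood at 22.1 and 21.8 FPKM in WT and at 17.5 and 18.0 FPKM in KO (log2 difference -0.29, limma adjusted p = 0.610). Nr1i3, encoding CAR, was low, at 3.43 and 3.04 FPKM in WT and at 1.45 and 2.75 FPKM in KO (limma adjusted p = 0.715). Ahr stood at 10.0 and 8.94 FPKM in WT and at 8.26 and 6.98 FPKM in KO (limma adjusted p = 0.705). With 1 library left out, the log2 difference came down to -0.30 for Nr1i2 and to -0.17 for Nr1i3 (both without KO 1), to -0.25 for Rxra (without WT 2) and to -0.18 for Ahr (without KO 2). Among other receptor genes of the list, Nr1h4, Rxrb and Rxrg overlapped between genotypes.

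Alas1, the rate-limiting enzyme of haem synthesis and itself a target of CAR and PXR, stood at 77.7 and 75.2 FPKM in WT and at 33.4 and 49.4 FPKM in KO. The KO libraries were well below the close WT pair (log2 difference -0.90, SE 0.18, limma adjusted p = 0.518). The 16 genes of haem synthesis and breakdown as a list had a median of -0.04, with 9 lower and 7 higher. Besides Alas1, the mitochondrial glycine carrier gene Slc25a38 was the one member with an unadjusted p under 0.05, at 13.96 and 12.97 FPKM in WT and at 16.6 and 16.1 FPKM in KO (log2 difference 0.26, limma adjusted p = 0.682). Por stood at 190 and 212 FPKM in WT and at 174 and 181 FPKM in KO (log2 difference -0.18, SE 0.11, limma adjusted p = 0.762), and the difference was -0.099 without WT 2. Among the 9 tested electron donors and partners (median 0.02), the ferredoxin gene Fdx1 was at 59.0 and 59.6 FPKM in WT and at 49.1 and 49.4 FPKM in KO (log2 difference -0.26, limma adjusted p = 0.621). Cyb5r1, a cytochrome b5 reductase gene, was at 49.7 and 35.6 FPKM in WT and at 72.4 and 60.8 FPKM in KO (log2 difference 0.65, limma adjusted p = 0.562), and the difference was 0.41 without WT 2.

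**Figure D4:**
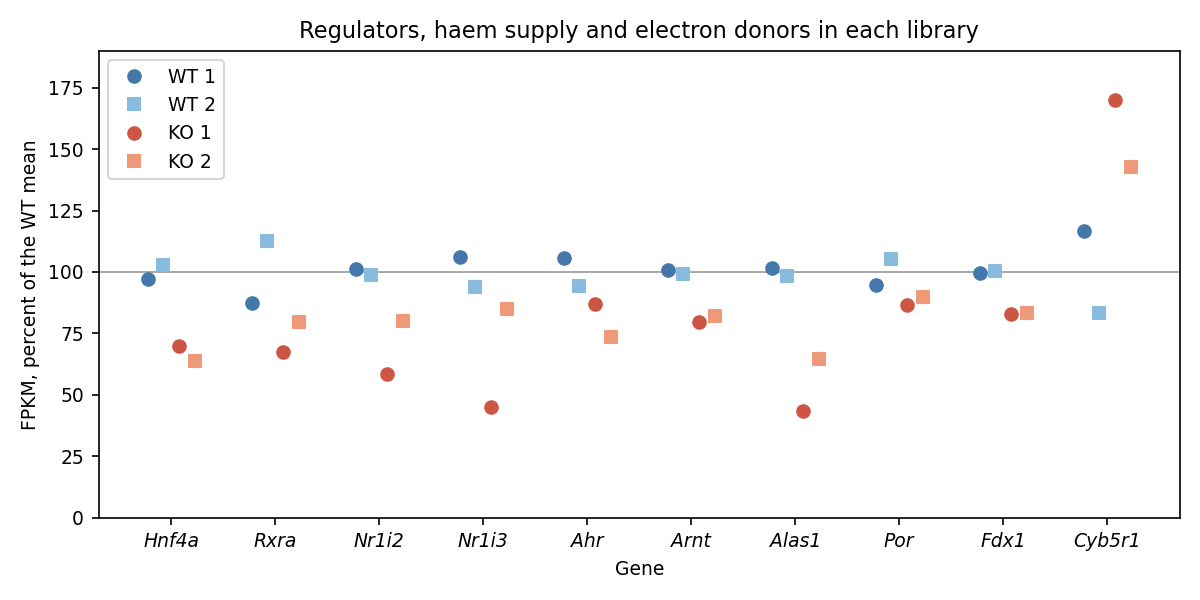
FPKM of 10 genes that regulate or serve the P450 enzymes, as a percent of the WT mean of each gene, 1 point per library. Both KO points lie below both WT points for Hnf4a, Rxra, Nr1i2, Nr1i3, Ahr, Arnt, Alas1, Por and Fdx1, and above them for Cyb5r1.

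Other targets of the same receptors did not follow in 1 direction. Of 22 tested CAR and PXR targets outside the P450 families, 9 were lower and 13 higher (median 0.05). An unadjusted p under 0.05 was found for 3 that were lower and 2 that were higher (4.19% and 3.1% of all genes tested). They included the sulfotransferase gene Sult1d1 (log2 difference -0.87, from 18.1 and 29.7 FPKM in WT to 9.60 and 15.6 FPKM in KO), the stress gene Gadd45a (0.35) and the glutathione transferase gene Gstt1 (0.35), all with adjusted limma p of 0.563 or more. Of 8 tested AhR targets, 5 were higher and 3 lower (median 0.15), and the methyltransferase gene Inmt was the one with an unadjusted p under 0.05 (WT 4.74 and 4.31 FPKM, KO 7.36 and 8.81 FPKM, log2 difference 0.71). Of 11 tested growth hormone and sex-bias regulators, 8 were lower (median -0.03), with Trim24 at 11.1 and 10.8 FPKM in WT and at 8.01 and 8.69 FPKM in KO (-0.36). The 5 clock output factors (median -0.04) and the 12 epoxide hydrolases, flavin monooxygenases and esterases (median -0.05) had 0 members with an unadjusted p under 0.05.

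Of the 21 tested P450 genes of families 4 and above, 13 were lower, with a median of -0.15. An unadjusted p under 0.05, found for 7.29% of all genes tested (4.19% lower and 3.1% higher), was found for 4. Of these Cyp8b1 (-0.82), Cyp26a1 (-0.65) and Cyp17a1 (-0.60) were lower and Cyp4f16 (0.29) was higher. Of 17 tested UGT genes 11 were lower (median -0.12), with Ugt1a2 at 1.07. Of 6 tested SULT genes 5 were lower (median -0.39), with Sult1d1 and Sult1a1 (-0.39) at an unadjusted p under 0.05. Of 20 tested GST genes 14 were higher (median 0.06), with Gstm5 (0.39) and Gstt1 higher and Gstp3 (-0.30) lower at such a p. Adjusted p over all genes was above 0.05 for each of these genes by limma, and the families were not tested against each other.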

How the data were processed

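Stranded TruSeq mRNA libraries were sequenced, per the labels' protocols. STAR 2.5.0, Cufflinks, Cuffdiff 2.2.1 and build mm10 are listed, with no roles, in the submitters' processing notes. The authors deposited FPKM values, 1 per gene and library, for which the submitters' processing notes list these tools; how each was run is not given in the sources used here, and the unit was read from the tools and the values, since no header states it. Symbols came from GENCODE M21, which matched 22061 of 22079 identifiers. Depth, estimated from the lowest steps of 1-transcript genes with fragments taken as 200 bases long, was roughly 15400000 to 17400000 fragments, or 30.8 to 34.9 fragments for a 2 kb transcript at 1 FPKM.

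Genes averaging 1 FPKM or more were compared as log2(FPKM + 1), a scale that understates the change of low genes, with limma 3.58.1 in R 4.3.3 (intensity trend, genotype as the only term, two-sided, threshold 0.05 after Benjamini-Hochberg adjustment). The fit was tested on simulated data. Members and gene lists were chosen with earlier results of these data known. Named were tested members, with full statistics for those of unadjusted p under 0.05, the leading gene of each subfamily and genes called in any alternative, low members reaching 1 FPKM in a library or apart at 0.5 FPKM or more, and up to 4 genes of unadjusted p under 0.05 per companion list. Promoter sequences are from RefSeq (GRCm38.p6), and shared 50-base windows were exact matches among GENCODE M21 transcripts. Alternatives varied the pseudocount, filter, scaling, trend, replicate term and libraries. The lymphocyte marker list is not reported here.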

Additional observations from a re-analysis of the deposited data

How the results depend on the processing

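Under the pseudocounts of 0.1 and 5, no level filter or one at 5 FPKM, rescaling, centring, no trend, removal of genes listed at 0 and a replicate block, the named differences that could be fitted (57 with no level filter, 46 at the 5 FPKM filter) kept their sign and no member was called. Leaving out 1 library moved the genes called from 0 to between 0 and 8 (8 without WT 1, 5 without KO 1), the members called to between 0 and 1 (Cyp2b10, without WT 1), and the members with an unadjusted p under 0.05 from 4 to between 1 (without WT 2) and 12 (without KO 1, 3 lower and 9 higher in KO). The labels do not say that equal replicate numbers mark a shared animal or day, and deviations of equally numbered libraries correlated at 0.15 over genes; with the number as a replicate block, 8 members, all lower in KO, and 1054 genes had such a p, against 4 and 759. With 1 library left out, the log2 difference changed sign for 19 members: Cyp2c29 (-0.18 to 0.70), Cyp2c23 (-0.020 to 0.38), Cyp2c67 (-0.27 to 0.38), Cyp2c37 (-0.34 to 0.88), Cyp2c68 (-0.73 to 0.14), Cyp2c40 (-1.996 to 0.14), Cyp2c38 (-0.81 to 0.53), Cyp2c39 (-0.25 to 0.53), Cyp2d10 (-0.27 to 0.074), Cyp2d9 (-0.16 to 0.44), Cyp2d22 (-0.040 to 0.10), Cyp2d40 (-0.43 to 0.40), Cyp2e1 (-0.33 to 0.42), Cyp2j5 (-0.24 to 0.18), Cyp2u1 (-0.40 to 0.037), Cyp3a11 (-0.58 to 0.25), Cyp3a13 (-0.0023 to 0.12), Cyp3a25 (-0.44 to 0.83), Cyp3a59 (-0.24 to 0.11). The causes were not tested. The other 13 members described, Cyp2g1 included, kept their sign throughout. With 2 libraries a genotype, the precision of each difference is limited by their number.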
